A study of Rattus norvegicus with 4 samples.

Results

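Genes of the amino acid transporter families were described in exposed NR8383 cells, a rat alveolar macrophage line that was derived by lung lavage. The families are Slc1a, Slc3a, Slc6a, Slc7a, Slc36a, Slc38a and Slc43a, and a gene belonged if its rat symbol begins with a family name followed by a number. By this rule 60 of 16581 named genes on the array belonged. The cultures had received titanium dioxide particles of the NM105 type (P25, a mixture of anatase and rutile) for 4 h, at 3 cm2 of particle surface per cm2 of culture, after 48 h in 25 cm2 flasks in medium with 15% serum and 2 mM L-glutamine. All 4 cultures, replicates 1 to 4, belong to this 1 exposed group, and the labels call them biological replicates. The study's untreated cultures were not used here, and no value below is a response to the particles.

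Carriers of these families move amino acids and related small molecules across the plasma membrane or the lysosomal membrane. Most Slc7 proteins are light chains that reach the cell surface only when bound to a heavy chain from Slc3. Slc38 and many Slc6 carriers use the sodium gradient, and Slc36 holds carriers that use protons, though not all of its members do. The Slc1 family holds both the carriers that clear glutamate at synapses and exchangers of small neutral amino acids. Slc6 also holds the carriers that take dopamine, noradrenaline, serotonin, GABA and glycine back into nerve endings and glia. In macrophages, cystine uptake through the light chain Slc7a11 feeds glutathione synthesis, and glutamine and arginine uptake feed energy metabolism and nitric oxide synthesis.

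A gene counted as detected on an array where Agilent's software called more than 50% of the spots of any of its probes well above background. Light chains of the Slc7 family and the heavy chain Slc3a2 made up 6 of the 10 amino acid carriers detected on all 4 arrays. The 3 carriers of monoamines, the 2 of glycine and the 2 measured cationic amino acid carriers were not detected on any array. The same held for 53.7% of all named genes. Of the 60 transporter genes, 14 were detected on all 4 arrays (23.3%), 5 on 1 to 3 arrays and 41 on none. These counts include Slc7a6os, which meets the rule by its symbol but is no carrier. Without it, 13 of 59 were detected on all 4 arrays (22.0%). Among all 16581 named genes, 35.2% were detected on all 4 arrays. Of 38 carriers of amino acids, 10 were detected on all 4 arrays (26.3%), 3 on 1 to 3 arrays and 25 on none. Of 14 neurotransmitter carriers, 2 were detected on all 4 arrays (14.3%), 2 on 1 to 3 arrays and 10 on none. Both shares on all 4 arrays lie below the 35.2% of all named genes. They describe genes, which are not replicates, so the difference between them was given no test. With glutamate and glycine carriers counted as amino acid carriers the counts were 11 of 45 for amino acid carriers and 1 of 7 for the remaining neurotransmitter carriers. Transporter genes with 1 probe were detected on all 4 arrays in 9 of 45 cases and those with several probes in 5 of 15, against 32.4% and 45.0% of all named genes. A gene without a detected probe may still be expressed, and in bulk RNA fewer expressing cells and less RNA per cell cannot be told apart.

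**Figure D1:**
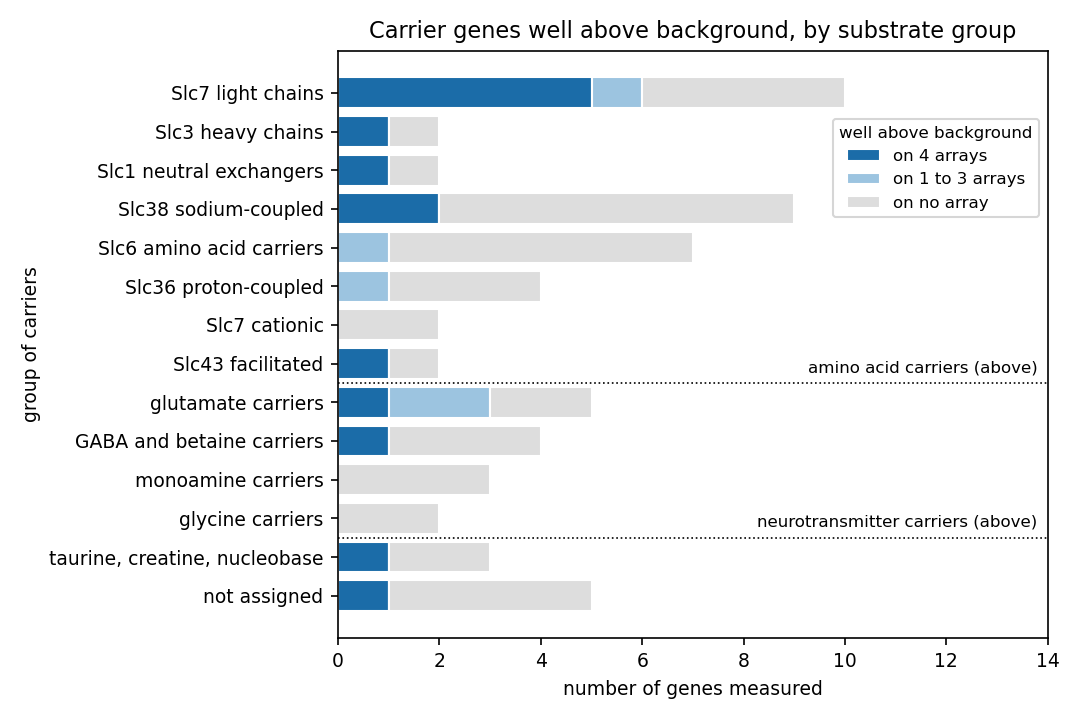
The bars count measured genes (x axis) in each group of carriers (y axis), split by the number of arrays on which the gene was well above background. The Slc7 light chains fill the longest dark bar, 5 of 10 genes on all 4 arrays. The Slc6 amino acid, Slc36, Slc7 cationic, monoamine and glycine carriers have no gene on all 4 arrays.

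The labelled cell type was checked against its markers. Of 13 measured macrophage markers, 11 were detected on all 4 arrays, 1 on 1 to 3 arrays and 1, Adgre1, on none. None of 10 epithelial and none of 10 neuronal markers was detected on any array. Of 10 fibroblast markers and 8 T cell markers, 1 in each list (Col1a1 and Lck) was detected on some arrays and none on all 4. Of 45598 probes, 14407, 10809, 12038 and 11911 were detected on replicates 1 to 4. Among probes detected on all 4 arrays, the 75th percentile was 1431, 585, 767 and 831 intensity units on replicates 1 to 4, so replicate 1 was the brightest array and replicate 2 the dimmest.

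Promoters are shown for 4 of these genes because detection and CpG content did not run together in this set. The sequences are the RefSeq windows of the GRCr8 assembly from 250 bases before to 50 bases after the start of the gene, written 5′ to 3′ on the strand of the gene, with CG pairs in capitals. They were chosen after the counts were seen. Slc3a2 and Slc3a1, the heavy chains of 2 kinds of carrier, lie at chr1:215048015-215048314 and chr6:15394700-15394999, both on the minus strand. Slc6a12, a carrier of betaine and GABA, lies at chr4:156257268-156257567, and Slc1a2, the main glutamate carrier of astrocytes, at chr3:109459859-109460158, both on the plus strand.
Slc3a2 promoter: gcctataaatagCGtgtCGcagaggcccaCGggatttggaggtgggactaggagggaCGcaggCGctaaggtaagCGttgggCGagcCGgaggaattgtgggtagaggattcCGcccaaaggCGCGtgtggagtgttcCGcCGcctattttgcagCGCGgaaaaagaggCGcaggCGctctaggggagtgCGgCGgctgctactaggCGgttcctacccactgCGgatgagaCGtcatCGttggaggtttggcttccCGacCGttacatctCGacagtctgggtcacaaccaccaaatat
Slc3a1 promoter: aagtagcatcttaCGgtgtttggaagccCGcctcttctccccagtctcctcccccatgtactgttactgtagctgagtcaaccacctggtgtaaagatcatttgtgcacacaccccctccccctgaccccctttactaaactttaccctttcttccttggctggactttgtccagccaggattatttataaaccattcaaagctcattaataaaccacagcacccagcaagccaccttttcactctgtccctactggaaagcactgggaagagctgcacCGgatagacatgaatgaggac
Slc6a12 promoter: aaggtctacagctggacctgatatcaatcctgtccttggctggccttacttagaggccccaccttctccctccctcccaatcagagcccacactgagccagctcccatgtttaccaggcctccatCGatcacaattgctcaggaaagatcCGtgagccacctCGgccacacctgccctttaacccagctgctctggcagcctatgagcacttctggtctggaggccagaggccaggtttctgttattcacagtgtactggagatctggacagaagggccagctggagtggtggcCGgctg
Slc1a2 promoter: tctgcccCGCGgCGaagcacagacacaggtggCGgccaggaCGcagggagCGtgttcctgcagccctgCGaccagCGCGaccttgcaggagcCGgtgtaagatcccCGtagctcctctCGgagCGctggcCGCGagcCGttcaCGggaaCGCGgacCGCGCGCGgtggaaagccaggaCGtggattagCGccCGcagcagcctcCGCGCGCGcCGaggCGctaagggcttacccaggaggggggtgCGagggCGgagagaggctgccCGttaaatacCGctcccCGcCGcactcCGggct
The window of Slc3a2, detected on all 4 arrays, holds 26 CG pairs, and that of Slc3a1, detected on none, holds 3. In the other pair the order is turned, with 4 pairs for Slc6a12, detected on all 4 arrays, and 39 for Slc1a2, detected on none. A window was found for 46 of the 60 genes, and where a gene had several windows the one with most CG pairs was taken. The median was 12.0 pairs over 13 genes detected on all 4 arrays and 12.5 over 28 detected on none. Over all named genes the medians were 21.0 pairs for 4929 genes detected on all 4 arrays and 7.0 for 7091 detected on none. The 5 genes detected on some arrays had 3 to 42 pairs.

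**Figure D2:**
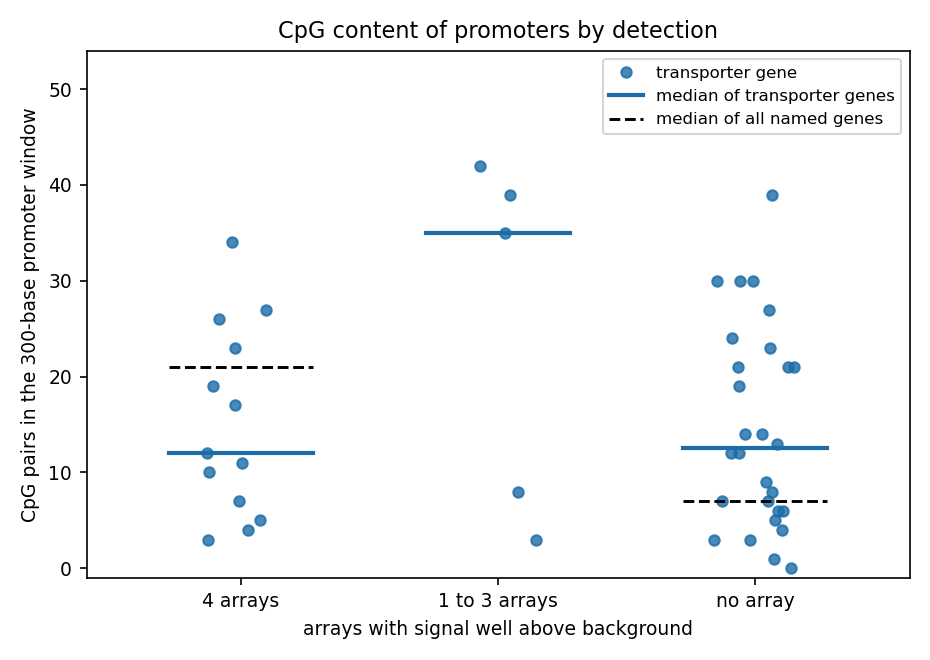
Each point is a transporter gene, placed by the number of arrays with signal well above background (x axis) and by the CG pairs in its 300-base promoter window (y axis). Slc7a6os, which is no carrier, is included. Blue lines are medians of the transporter genes, at 12.0 for 4 arrays and 12.5 for no array, and dashed black lines are medians of all named genes, at 21.0 and 7.0.

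The same windows were searched on both strands for the letters TGATGNAAN, the core bound by ATF4 in genes of the amino acid response, and TGACNNNGC, the antioxidant response element bound by NRF2. Both begin with TGA, and no window of a transporter gene held both. A gene was counted if any of its windows held the letters. The first stood in 0 of 13 transporter genes detected on all 4 arrays and in 2 of 28 detected on none, Slc38a1 and Slc1a4. Counted the same way over all named genes it stood in 2.25% of those detected on all 4 arrays and in 4.26% of those detected on none, and it stood in 3.97% of all 33469 single windows of this length. The second stood in 4 of 13 (Slc3a2, in its other window, Slc6a6, Slc7a7 and Slc38a2) and in 4 of 28 (Slc3a1, Slc6a11, Slc36a1 and Slc38a8). Over all named genes its shares were 15.8% and 12.3%, and over all single windows 12.1%. Neither stood in the window of Slc7a11. These matches describe letters in a window and are no binding sites.

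Levels are log2 processed intensity relative to the 75th percentile of the probes detected on all 4 arrays, and for a gene with several probes that of its brightest one. They place 1 gene on different arrays. They do not rank genes against each other, because probes differ in brightness. Where a range without 1 array is given, that array held the highest or lowest value, so a smaller range was bound to follow.

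Heavy chains come first. Slc3a2, which encodes the 4F2 heavy chain (CD98) that carries most Slc7 light chains to the surface, was at 0.66, 0.77, 0.35 and 0.18 on replicates 1 to 4. Its mean was 0.49 ± 0.27 (SD, n = 4), with replicates 1 and 2 above replicates 3 and 4, and its signal was 158 to 401 times the 99th percentile of the negative controls. Slc3a1, the rBAT heavy chain of the cystine carrier of kidney and gut, was not detected on any array.

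Light chains of the Slc7 family had 5 of 10 genes detected on all 4 arrays, 1 on 1 to 3 arrays and 4 on none. Slc7a8 (LAT2), an exchanger of neutral amino acids, was at −1.43, −1.96, −2.03 and −2.12 on replicates 1 to 4, a mean of −1.89 ± 0.31 (SD, n = 4). Slc7a7 (y+LAT1), which exports cationic amino acids against neutral ones and is the gene of lysinuric protein intolerance in humans, was at −3.02, −3.67, −3.53 and −3.52, a mean of −3.44 ± 0.28 (SD, n = 4). Both were highest on replicate 1, and without that array their ranges were 0.16 and 0.15 in place of 0.70 and 0.64. Slc7a6 (y+LAT2), its relative, was at −4.20, −4.01, −3.67 and −3.98, a mean of −3.97 ± 0.22 (SD, n = 4), and was lowest on replicate 1. Slc7a9 (b0,+AT), the usual partner of Slc3a1, was at −4.18, −3.76, −3.57 and −4.18, a mean of −3.92 ± 0.31 (SD, n = 4). It was thus detected on all 4 arrays, at 7.71 to 14.1 times the 99th percentile of the negative controls, while its partner was detected on none. Both genes rest on 1 probe at 1 spot each, and a gene without a detected probe may still be expressed.

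Slc7a11 (xCT), the light chain that exchanges cystine for glutamate, was at −2.77, −3.63, −4.24 and −3.79 on replicates 1 to 4. Its mean was −3.61 ± 0.61 (SD, n = 4), and replicate 1 stood highest. The range of 1.47 was 0.61 without replicate 1 and 0.49 after normexp background correction, which also adds 50 intensity units. Its processed intensity was 40.7 to 210 units, and the part of the added 50 units was not tested. The other probe for Slc7a11 was not detected on any array, so the probes of this gene disagree. Slc7a5 (LAT1), the carrier of large neutral amino acids induced in dividing cells, was detected on replicates 1, 3 and 4, at −4.55, −4.64 and −4.42. On replicate 2, the dimmest array, it was at −5.88 and not well above background. Its signal there was 1.81 times the 99th percentile of the negative controls, against 6.08 to 10.9 times on the other arrays, and the part of array brightness in this was not tested. Slc7a10, Slc7a12, Slc7a13 and Slc7a15 were not detected on any array.

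Cationic amino acids are also taken up by Slc7 carriers that work without a heavy chain, and neither measured gene of this kind was detected. Slc7a2, which supplies arginine to macrophages that make nitric oxide, had 2 probes and Slc7a3 had 1, and none was well above background on any array. Slc7a1, another carrier of this kind, was matched to no probe and was not analysed here. Of the enzymes that use arginine, Nos2 and Arg2 were not detected on any array, while Arg1 was at −1.73 ± 0.41 (SD, n = 4).

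Among neutral exchangers, Slc1a5 (ASCT2), which takes up glutamine, was at −1.30, −1.56, −1.88 and −1.47 on replicates 1 to 4, a mean of −1.55 ± 0.24 (SD, n = 4). Its relative Slc1a4 (ASCT1) was not detected on any array. Slc43a2 (LAT4), a facilitated carrier of branched-chain amino acids, methionine and phenylalanine, was at −0.44, −0.92, −1.25 and −1.01, a mean of −0.90 ± 0.34 (SD, n = 4). It was highest on replicate 1, and its range of 0.81 was 0.33 without that array. Its second probe, also detected on all 4 arrays, was at −2.88 ± 0.15 and gave a smaller spread. Slc43a1 (LAT3) was not detected on any array, and neither was Slc43a3, a carrier of purine bases.

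All 4 arrays detected 2 of the 9 measured Slc38 genes, and no array detected the other 7. Slc38a2 (SNAT2), which takes up small neutral amino acids and is induced when they run short, was at −2.61, −3.23, −2.94 and −3.02 on replicates 1 to 4, a mean of −2.95 ± 0.25 (SD, n = 4). Slc38a7 (SNAT7), which moves glutamine and asparagine out of the lysosome, was at 0.37, 0.80, 0.24 and 0.31, a mean of 0.43 ± 0.25 (SD, n = 4). Replicate 2 was highest for Slc38a7, and its range of 0.56 was 0.14 without that array. A second probe for Slc38a7 was detected on all 4 arrays as well, at −2.14 ± 0.28, and replicate 2 was also highest there. Slc38a9, the lysosomal arginine sensor of the mTORC1 pathway, had 2 probes and was not detected on any array. Slc38a1, Slc38a3, Slc38a4, Slc38a5, Slc38a6 and Slc38a8 were not detected on any array either.

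No gene of the Slc36 family was detected on all 4 arrays. Slc36a1 (PAT1), which moves small amino acids out of the lysosome, was not detected on any array, and neither were Slc36a2 and Slc36a3. Slc36a4 was detected on replicates 1, 3 and 4, at −3.85, −3.21 and −3.24, and on replicate 2 it was at −6.67 and not well above background. That value was 1.05 times the 99th percentile of the negative controls, against 14.8 to 17.6 times on the other arrays. This gap rests on 1 of 3 probes printed at 1 spot each, and the other probes were detected on 1 array and on none.

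Amino acid carriers of the Slc6 family were not detected on all 4 arrays in any of 7 cases. Slc6a18, known from the kidney, was detected on replicates 1, 2 and 4, at −5.22, −4.93 and −5.47, and was at −5.69 on replicate 3. Its second probe was not detected on any array. Slc6a7, Slc6a14, Slc6a15, Slc6a17, Slc6a19 and Slc6a20a were not detected on any array. Slc6a6 (TauT), the taurine carrier, was at 1.25, 0.88, 0.99 and 0.68 on replicates 1 to 4, a mean of 0.95 ± 0.24 (SD, n = 4). All 3 probes for Slc6a6 were detected on all 4 arrays, with means of 0.95, 0.48 and 0.14, and each was highest on replicate 1 and lowest on replicate 4. Slc6a8, the creatine carrier, was not detected on any array.

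Neurotransmitter carriers detected on all 4 arrays were Slc6a12 and Slc1a3. Slc6a12 (BGT1), which takes up betaine and GABA and, like Slc6a6, is known as a target of the hypertonicity factor NFAT5 in the kidney, was at −0.19, 0.00, −0.36 and −0.40 on replicates 1 to 4. Its mean was −0.24 ± 0.18 (SD, n = 4), and its signal was 106 to 224 times the 99th percentile of the negative controls. This rests on 1 probe at 1 spot. Slc1a3 (GLAST), a glutamate carrier of glia, was at −2.73, −3.40, −3.06 and −2.93, a mean of −3.03 ± 0.28 (SD, n = 4). Its second probe was detected on 2 arrays. Slc1a6 was detected on replicate 4 alone, at −4.90, and Slc1a7 on replicate 1 alone, at −5.94, each from 1 probe at 1 spot. Among the carriers not detected on any array were the glutamate carriers Slc1a1 and Slc1a2, the GABA carriers Slc6a11 and Slc6a13, the noradrenaline carrier Slc6a2, the dopamine carrier Slc6a3, the serotonin carrier Slc6a4 and the glycine carriers Slc6a5 and Slc6a9. Of 15 enzymes and vesicle carriers of transmitters, 14 were detected on no array, against 53.7% of all named genes. The other, Th, which makes the precursor of dopamine, was detected on all 4 arrays, at −4.07 ± 0.20 (SD, n = 4).

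**Figure D3:**
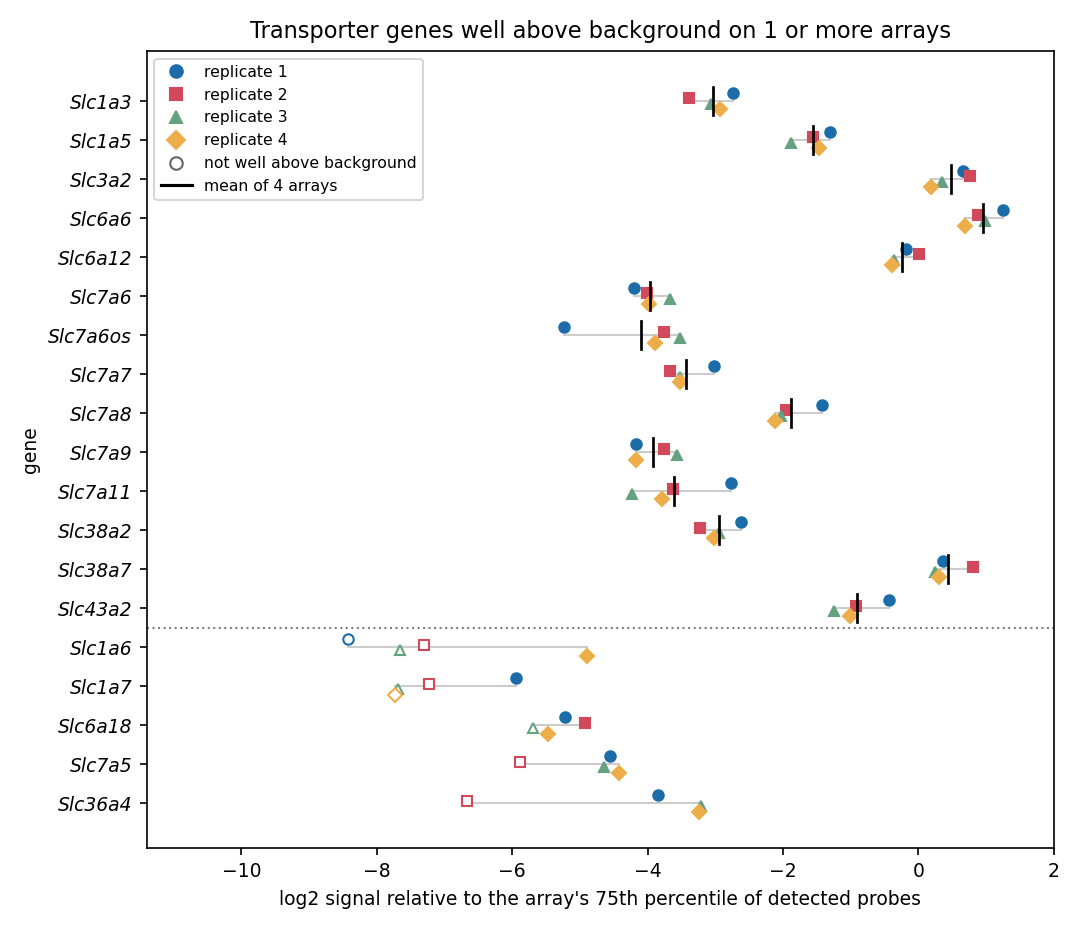
Each row is a gene (y axis) and each symbol its log2 signal on 1 array relative to that array's 75th percentile of detected probes (x axis). Open symbols were not well above background, and the 5 genes below the dotted line were detected on some arrays. Black bars are means over 4 arrays for the 14 genes detected on all of them, and positions compare along a row, not between rows.

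The remaining symbols that meet the rule have no settled substrate or are no carriers. Slc7a6os, named for its place opposite Slc7a6, encodes a protein for nuclear import of RNA polymerase II and is not a transporter. It was at −5.24, −3.76, −3.53 and −3.88 on replicates 1 to 4, a mean of −4.10 ± 0.77 (SD, n = 4), and was lowest on replicate 1. Its range of 1.71 was 0.36 without that array. Slc6a21, Slc7a3l1, Slc7a4 and Slc7a14 were not detected on any array. A further 9 symbols of the reference table meet the rule but were matched to no probe and were not analysed here.

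The spread between arrays was then set beside that of other genes. The SD over the 4 arrays ran from 0.18 to 0.77, with a median of 0.27 over the 14 genes detected on all of them. For all 5830 named genes detected on all 4 arrays the median was 0.23. The SD was above 0.5 for 2 of the 14 genes, Slc7a11 and Slc7a6os, and for 332 of the 5830. Without replicate 1 it was above 0.5 for 0 of the 14, with 0.31 for Slc7a11 and 0.18 for Slc7a6os, and for 165 of the 5830. After normexp correction it was 0.22 for Slc7a11, and of the 14 Slc7a6os alone stayed above 0.5, beside 168 of the 5830. Replicate 1 was the highest array for 8 of the 14 genes and replicate 4 for none, while among the 5830 genes replicate 1 was highest for 37.8% and replicate 4 for 15.1%. After normexp correction replicate 1 was highest for 6 of the 14. Culture, extraction, labelling and hybridisation cannot be told apart in these spreads, and whether the brightness of array 1 took part was not tested.

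**Figure D4:**
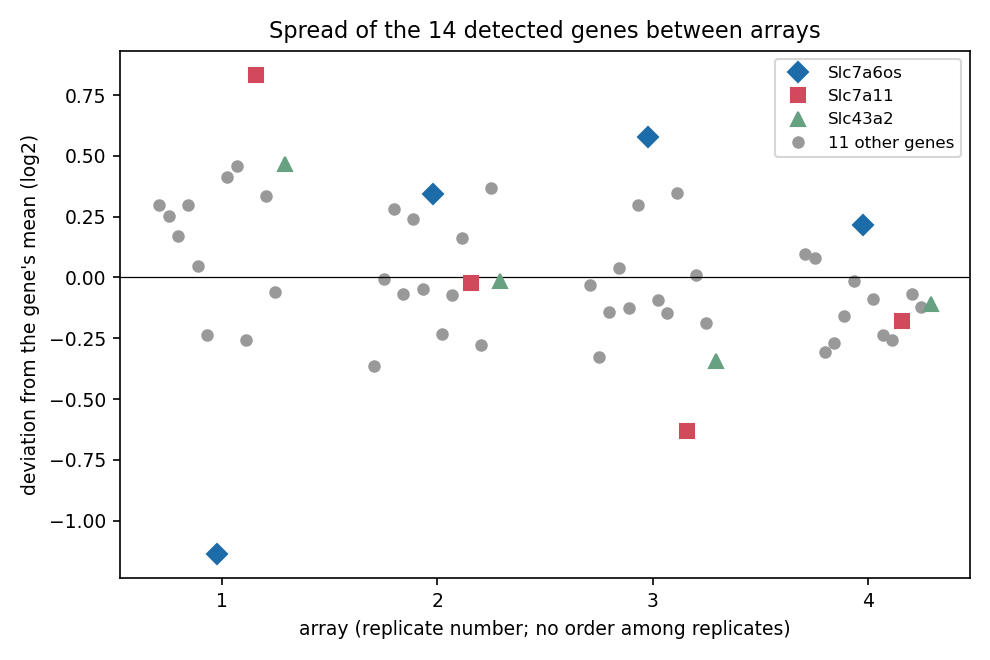
The deviation of each gene's level from its own mean over 4 arrays (y axis, log2) is plotted by array (x axis) for the 14 genes detected on all of them. Slc7a11 is highest and Slc7a6os lowest on replicate 1, where 10 of the 14 points lie above 0.

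A test between arrays was possible for 1 detected transporter gene, Slc1a3, whose brightest probe is printed at 10 spots. It was limma's moderated F with Benjamini-Hochberg adjustment over all 1594 such probes, where spots of 1 array share the RNA of 1 culture, so that its p concerns arrays and not cultures. Slc1a3 differed between the arrays by 0.66 from the highest, replicate 1, to the lowest, replicate 2 (limma adjusted p = 3.22e-11). That is below the 2-fold minimum asked for, which 37 of 871 genes tested passed (4.25%). Without a fold minimum the same test called 84.6% of the 871 genes, so the call for Slc1a3 is common among genes tested. Without replicate 2 the range of Slc1a3 was 0.34. After normexp correction, which also adds 50 intensity units, the range was 0.09 and the limma adjusted p 0.677. The processed intensity of Slc1a3 was 55.6 to 215 units, and the part of the added 50 units in this was not tested. Over the other settings run with Slc1a3 in the test, including each array left out, the limma adjusted p ran from 3.22e-11 to 4.26e-05.

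Lists of genes that work around these carriers were counted in the same way. For these and the lists of the next paragraph, the shares of all named genes were 35.2% on all 4 arrays and 53.7% on none. Of 22 genes of the amino acid response driven by ATF4, which induces several of these carriers when amino acids are short, 18 were detected on all 4 arrays, 2 on 1 to 3 arrays and 2 on none. Atf4 itself was at 1.52 ± 0.30, the stress factor gene Ddit3 at −0.62 ± 0.08, Asns, which makes asparagine, at 0.77 ± 0.14 and the pseudokinase gene Trib3 at −0.91 ± 0.19 (SD, n = 4 for each). Of 25 measured genes of lysosomal amino acid sensing by mTORC1, 19 were detected on all 4 arrays, 3 on 1 to 3 arrays and 3 on none. Rptor was at −0.15 ± 0.36, Mlst8 at −2.39 ± 0.20, the GTPase gene Rheb at −0.79 ± 0.19 and Rragc, a GTPase of the lysosomal sensor, at 1.69 ± 0.16 (SD, n = 4 for each).

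Of 11 genes of cystine and glutathione use, 7 were detected on all 4 arrays, 2 on 1 to 3 arrays and 2 on none. Gclc, the catalytic subunit of the first step of glutathione synthesis, was at −1.93 ± 0.34, Gss at −2.11 ± 0.23, Gsr at −3.59 ± 0.24 and Gpx4 at 5.25 ± 0.29 (SD, n = 4 for each). Of 10 genes of arginine, proline and polyamine metabolism, 6 were detected on all 4 arrays, 1 on 1 to 3 arrays and 3 on none. Beside Arg1 these held Asl at 1.03 ± 0.19, the ornithine decarboxylase gene Odc1 at −0.20 ± 0.39 and the spermine synthase gene Sms at −3.42 ± 0.33 (SD, n = 4 for each). Of 11 enzymes of glutamine and glutamate, 8 were detected on all 4 arrays and 3, Gad1, Gad2 and Abat, which make and degrade GABA, on none. The glutaminase gene Gls2 was at −3.35 ± 0.21, Glul, which makes glutamine, at −1.58 ± 0.33 and Glud1 at −0.79 ± 0.08 (SD, n = 4 for each). Of 11 measured membrane carriers from other families, most of them for amino acids or peptides, 6 were detected on all 4 arrays. A further 4 were detected on 1 to 3 arrays and 1 on none. The lysosomal histidine and peptide carriers Slc15a3 and Slc15a4 were at 1.18 ± 0.07 and −1.70 ± 0.18, the aromatic amino acid carrier Slc16a10 at −4.62 ± 0.27 and the mitochondrial glutamate carrier Slc25a22 at −4.09 ± 0.24 (SD, n = 4 for each).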

How the data were processed

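Per the file headers, the deposited intensity came from Agilent Feature Extraction 11.0.1.1 (protocol GE1_1100_Jul11, array design 074036, 1 colour, 1 scan), and all 4 arrays lay on 1 slide. Processed intensity was background-subtracted and detrended by the authors' software and was not normalized between arrays. The deposited files also hold median spot and background intensity and spot flags.

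Control spots and outlier spots (486 to 723 per array) were left out of intensity, except where every spot of a probe was an outlier. Such a probe kept all its spots, so a probe printed at 1 spot kept its value even when flagged. No spot was saturated. Log2 values were averaged over the spots of a probe, and each array was scaled to its 75th percentile over the probes detected on all 4 arrays, since under 50% were (22.9%). Accessions without version were matched to a RefSeq gene table of GRCr8, which named 21109 of 45598 probes and left 24489 unnamed. Sensitivity was judged by 308 negative controls, whose 99th percentile, outliers left out, was 5.07 to 5.96 intensity units. The 4 arrays limit the precision.

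Detection and levels were described without a test. For differences between arrays, limma 3.58.1 (R 4.3.3) was run on probes with several spots, detected on all 4 arrays, at an adjusted p under 0.05 and 2-fold, after a test on simulated data. Python 3.11.15 was used for the rest. The members, classes and lists were chosen with earlier results of these data known. Members are named, and of each pathway list the first 4 detected genes in list order; a member and a list gene are not reported here. Alternatives were other detection rules, normexp (offset 50, on median intensity), quantile and other scalings, probe averages, fold minima, no filter on dim probes, and each replicate left out.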

Additional observations from a re-analysis of the deposited data

Results flagged for a closer look

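Of the 19 transporter genes detected on at least 1 array, 1 had an array far from the other 3. The rule used, Dixon's, flags about 1 in 20 genes by chance, and 19 were looked at. Slc7a5 was at −5.88 on replicate 2, where it was not well above background, against −4.55, −4.64 and −4.42 on replicates 1, 3 and 4, and the gap was 0.851 of the whole range, above Dixon's critical value for 4 samples. The value on replicate 2 is a dim signal that only bounds the level, and Slc7a5 was among the 19 genes through the arrays where it was detected, so the gap restates the missed detection and is no separate result. Replicate 2 was the dimmest array, and its part in the gap was not tested.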

How the results depend on the processing

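The count of 14 transporter genes detected on all arrays stayed at 14 when every spot had to be well above background, when the brightest probe alone decided, and without replicate 1 or 4. It was 16 without replicate 2 (Slc7a5 and Slc36a4 added), where 37.8% of all named genes were detected on all arrays, against 35.2% in the main setting. Without replicate 3 it was 15 (Slc6a18 added), beside 35.3% of all named genes. When signal above the 99th percentile of negative controls was asked for, it was 17, beside 44.4%. These shares also belong beside the carrier counts that follow. Amino acid carriers detected on all arrays were 12 of 38 without replicate 2, 11 without replicate 3, 13 under the rule on negative controls and 10 under the other detection settings. Neurotransmitter carriers detected on all arrays stayed at 2 of 14 under each of these. With glutamate and glycine carriers counted as amino acid carriers the counts were 11 of 45 amino acid carriers and 1 of 7 neurotransmitter carriers. The median SD was 0.21 after normexp correction, 0.25 to 0.26 under the other scalings and probe averages, and 0.20 to 0.31 with each replicate left out. The limma test between arrays called 0 of 1 gene at 2-fold, 1 at 1.5-fold, 1 without a minimum, and 3 of 6 (Slc6a17 and Slc7a14 among them) without the filter on dim probes. None of those 3 was detected on an array. Over all genes the limma test called 37 of 871 at 2-fold, 224 at 1.5-fold, 737 without a minimum, 19 after normexp correction, 369 of 1354 without the filter, and 10 to 35 with each replicate left out, the lowest being without replicate 1. Of 126 ranges recomputed for single genes, 105 stayed within 1.5 times. Of 126 levels, 83 stayed within 1 SD and 43 moved. The median of detected probes and the percentile over all probes, which shift the zero of the scale, each moved all 14 genes. Normexp moved 7. Probe averages moved 3, among them Slc38a7 at −0.85. Leaving out replicate 2 moved 5. That setting also changes which probes are detected on all arrays used, and so shifts the zero. These 5 moves therefore do not show that the levels depend on replicate 2. No paired analysis was possible because there is 1 group.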
